A study of Mus musculus with 5 samples.

Results

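The mitochondrial ribosomal protein genes are the nuclear genes whose symbols begin with Mrpl (large subunit) or Mrps (small subunit). They were followed in kidneys of mouse embryos with activated Notch1 in the nephron lineage. Members were chosen by symbol alone, as the letters Mrpl or Mrps followed by a number and at most 1 letter. This gave 78 of the 32793 genes in the tables, 49 with a large and 29 with a small subunit symbol. All 78 were present in both deposited tables and all 78 passed the filter on low counts, with 248 to 2279 counts per gene and library.

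The data were bulk RNA-seq of total RNA from kidneys at embryonic day 15.5, in 5 libraries, of which 2 are labelled NICD_mut and 3 NICD_wt. The NICD_mut embryos had 1 copy of Six2TGC, a transgene that makes a GFP-Cre fusion under Six2 control in nephron progenitors, and the RosaN1ICD∆PEST allele. That allele makes an activated Notch1 fragment without its PEST degradation signal once Cre has acted, so the fragment is made in progenitors and in the cells derived from them. NICD_wt kidneys came from littermates with the RosaN1ICD∆PEST allele and no Cre, so both groups carried the Rosa allele and Six2TGC was in NICD_mut only. An effect of Six2TGC itself and of activated Notch1 cannot be told apart. Whether the libraries of a group are different animals is not stated in the sources used here. A p-value below therefore measures only the variation among these 5 libraries, and some of that may be technical.

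Mitochondria keep a small genome of their own that encodes core subunits of the respiratory chain. Those few messages are read by a dedicated ribosome inside the organelle, the mitoribosome, whose ribosomal RNAs come from mitochondrial DNA and whose proteins are all encoded in the nucleus, made in the cytosol and imported. The mammalian mitoribosome descends from a bacterial ribosome but has exchanged RNA for protein: many of its proteins have a bacterial counterpart, and many others were added in mitochondria. The small subunit binds the message and decodes it, and the large subunit forms peptide bonds and is tethered to the inner membrane. In the kidney, demand for mitochondrial respiration rises as nephrons mature, above all in the proximal tubule.

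The 78 genes lay on 17 mouse chromosomes (GENCODE M21, mm10), so they do not form a cluster. Their promoters were read from RefSeq (GRCm38.p6), which held an entry for 69 of the 78, and were searched on both strands for 4 motifs linked in textbooks to mitochondrial or growth genes: NRF1 as GCGCANGCG with N any base, ETS (the family of GABP) as CCGGAAG, YY1 as AAGATGGCG and the E-box bound by Myc as CACGTG. The window ran from 250 bases before to 50 bases after the RefSeq start. The NRF1 letters stood in 16 of the 69 promoters (23.2%), against 7.0% of all promoters in the table and 13.8% of those of tested genes. For ETS the count was 26 (37.7%, against 9.9% and 17.8%), for YY1 8 (11.6%, against 1.6% and 3.1%) and for the E-box 5 (7.2%, against 8.1% and 11.3%). At least 1 of the 4 was found in 44 of the 69 members (63.8%, against 22.6% and 37.8%). A match describes letters only and is not evidence that a factor binds. The 150 bases before the start follow for 6 members, chosen after their values were seen: the large subunit genes with the largest changes (Mrpl11 and Mrpl12), the small subunit gene with the largest change (Mrps22), members with 1 motif or several (Mrpl20, Mrpl32) and a member that did not pass the test (Mrpl36). Letters are lower case, 5′ to 3′ on the gene's own strand, with the 4 motifs on either strand in capitals.
Mrpl11: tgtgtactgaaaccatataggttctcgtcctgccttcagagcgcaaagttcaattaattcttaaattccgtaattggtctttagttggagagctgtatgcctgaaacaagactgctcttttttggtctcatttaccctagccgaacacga
Mrpl12: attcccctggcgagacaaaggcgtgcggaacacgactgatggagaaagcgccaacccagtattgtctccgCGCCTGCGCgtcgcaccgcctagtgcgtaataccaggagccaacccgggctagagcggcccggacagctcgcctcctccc
Mrps22: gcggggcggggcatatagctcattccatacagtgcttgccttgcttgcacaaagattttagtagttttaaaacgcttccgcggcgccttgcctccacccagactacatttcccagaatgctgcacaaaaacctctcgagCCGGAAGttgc
Mrpl20: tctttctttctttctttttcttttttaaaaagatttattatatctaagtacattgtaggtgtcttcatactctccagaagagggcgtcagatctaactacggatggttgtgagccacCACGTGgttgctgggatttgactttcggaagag
Mrpl32: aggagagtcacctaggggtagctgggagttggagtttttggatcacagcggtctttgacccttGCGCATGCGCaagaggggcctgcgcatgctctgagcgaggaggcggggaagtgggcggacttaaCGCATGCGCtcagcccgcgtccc
Mrpl36: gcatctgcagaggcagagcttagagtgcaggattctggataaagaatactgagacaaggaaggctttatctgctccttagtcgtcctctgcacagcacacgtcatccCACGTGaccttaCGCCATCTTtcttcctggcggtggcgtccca
Mrpl12 held the NRF1 letters 80 bases before its start, and Mrpl32, which shares its promoter region with the proteasome gene Psma2, held them at overlapping places and once more 23 bases before the start. The ETS letters of Mrps22 began 11 bases before its start, and the E-box of Mrpl20 33 bases before. Mrpl36 had the YY1 letters 31 and an E-box 43 bases before its start, and Mrpl11 held none of the 4 in the printed stretch. The stretches lie at chr19:4962156-4962305 (Mrpl11, plus strand), chr11:120484487-120484636 (Mrpl12, plus strand), chr9:98601680-98601829 (Mrps22, minus strand), chr4:155802728-155802877 (Mrpl20, plus strand), chr13:14613038-14613187 (Mrpl32, minus strand) and chr13:73330859-73331008 (Mrpl36, plus strand). GENCODE puts the start of Mrpl11, Mrpl12, Mrpl32 and Mrpl36 upstream of the RefSeq start used here. The share of promoters with at least 1 motif was 63.8% among the 58 members with an entry that were lower in NICD_mut (at an adjusted p under 0.05) and 63.6% among the 11 that were not past the threshold. By motif the shares in these sets were 25.9% and 9.1% for NRF1 and 37.9% and 36.4% for ETS. They were 10.3% and 18.2% for YY1 and 6.9% and 9.1% for the E-box. These differences were not tested.

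The label checks and the state of the libraries came first. Notch1 rose in NICD_mut, at 288 and 324 CPM (counts scaled by library size) against 127, 142 and 120 CPM in NICD_wt, and Six2, which marks nephron progenitors, fell to 7 and 6 counts against 2411 to 3015. All 11 kidney markers listed passed the filter, 4 of them higher, 6 lower and 1 not past the threshold. Total counts were 17361823 to 21356447 per library. Of the 15885 genes tested, 7583 (47.7%) changed at an adjusted p under 0.05 (edgeR's quasi-likelihood test with Benjamini-Hochberg adjustment over all genes tested), 3649 higher and 3934 lower, so a call is common in this comparison. Skeletal muscle transcripts (summed over 8 genes) stood at 3512 CPM in NICD_mut 1 and 146 in NICD_wt 1, against 4.78 to 14.9 in the other libraries, and results are given below without those 2 libraries. Ucp1, the defining gene of brown fat, was at 0 in all 5 libraries. Cidea, also listed for brown fat, had 22 counts in NICD_mut 1 and 5 in NICD_wt 1. It had 1 count in NICD_wt 2 and 0 in NICD_mut 2 and NICD_wt 3, and did not pass the filter.

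Mitochondrial ribosomal protein genes fell together in NICD_mut. By edgeR's quasi-likelihood test 65 of the 78 members were lower, 13 did not pass and none were higher, where 24.8% of all tested genes were called lower. All 78 log2 fold changes (NICD_mut minus NICD_wt) were below 0. Their median was −0.42, or 25.4% lower, with an interquartile range of −0.51 to −0.31, while the median over all tested genes was 0.01 with an interquartile range of −0.33 to 0.45. Both NICD_mut libraries lay below every NICD_wt library for 73 of the 78 members, an arrangement found for 34.2% of all tested genes. The groups overlapped for Mrpl4, Mrpl14, Mrpl23, Mrpl33 and Mrpl36.

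The fall was shared and modest in size. The members' SD in log2 fold change was 0.16, against a median standard error (SE) of 0.09 for a single gene, and the range ran from −0.74 to −0.00. No member passed a test against a minimum fold change of 1.5 (edgeR's glmTreat), under which 4.39% of all tested genes were lower. The members took 0.245% and 0.255% of all counts in the NICD_mut libraries and 0.336%, 0.326% and 0.339% in NICD_wt. Fitted on the deposited TPM (abundances scaled by gene length and library) as log2(TPM + 1) with limma, 40 members were lower and none higher, and the median was −0.30. Of all genes tested in that fit, 17% were lower. The median of all genes shifted to 0.11 on that scale, so the members lay 0.41 below it, against 0.44 below in the count fit. The split of all calls moved as well, from 48.1% higher in the count fit to 62.1% higher with log2(TPM + 1).

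**Figure D1:**
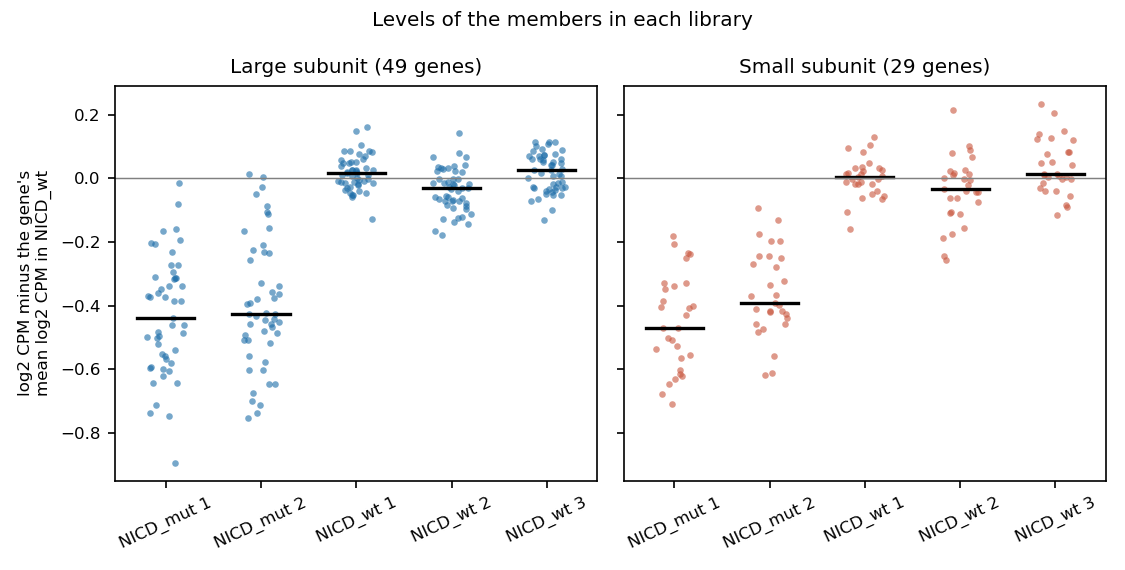
Each point is 1 member gene in 1 library, as log2 CPM minus the gene's mean log2 CPM over the 3 NICD_wt libraries, with large subunit genes at left and small subunit genes at right; black bars are medians. Over all members the medians were −0.45 and −0.41 in NICD_mut 1 and 2, and 0.01, −0.03 and 0.02 in NICD_wt 1, 2 and 3.

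Both subunits moved by about the same amount. Among large subunit symbols 41 of 49 members were lower, with a median log2 fold change of −0.43 (25.5% lower), and among small subunit symbols 24 of 29 were lower, with a median of −0.42 (25.1% lower). Summed TPM of the large subunit was 4120 ± 41.4 in NICD_mut (SD, n = 2) and 5022 ± 82.6 in NICD_wt (SD, n = 3), 17.96% lower. That of the small subunit was 1969 ± 61.8 and 2376 ± 54.4, 17.12% lower. The ratio of large to small summed TPM was 2.12 and 2.06 in NICD_mut, and 2.12, 2.16 and 2.06 in NICD_wt, so the groups overlapped in this ratio. No p was computed over the members, and the difference between the subunits was not tested. Both counts depended on single libraries. Without NICD_wt 1, 31 large and 15 small members were lower, where 20.3% of all genes tested were lower. Without NICD_wt 3 the counts were 31 and 16, and the share of all genes was 19.6%. On log2(TPM + 1) 28 large and 12 small members were lower, where 17% of all genes tested were lower.

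The log2 fold changes were more widely spread in the large subunit than in the small, a difference that was not tested. Their interquartile range was 0.26 for the large and 0.16 for the small subunit. Values below −0.5 were found for 15 of 49 large members (30.6%) and 5 of 29 small members (17.2%), against 15.8% of all tested genes, so the share in the small subunit was near the background. Within the large subunit, proteins with a bacterial counterpart had the wider interquartile range (0.36, 30 genes, 23 lower, median −0.45), and proteins added in mitochondria the narrower one (0.17, 19 genes, 18 lower, median −0.42). In the small subunit 13 of 16 members with a bacterial counterpart were lower (median −0.39), as were 9 of 11 mitochondrial additions (median −0.48).

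**Figure D2:**
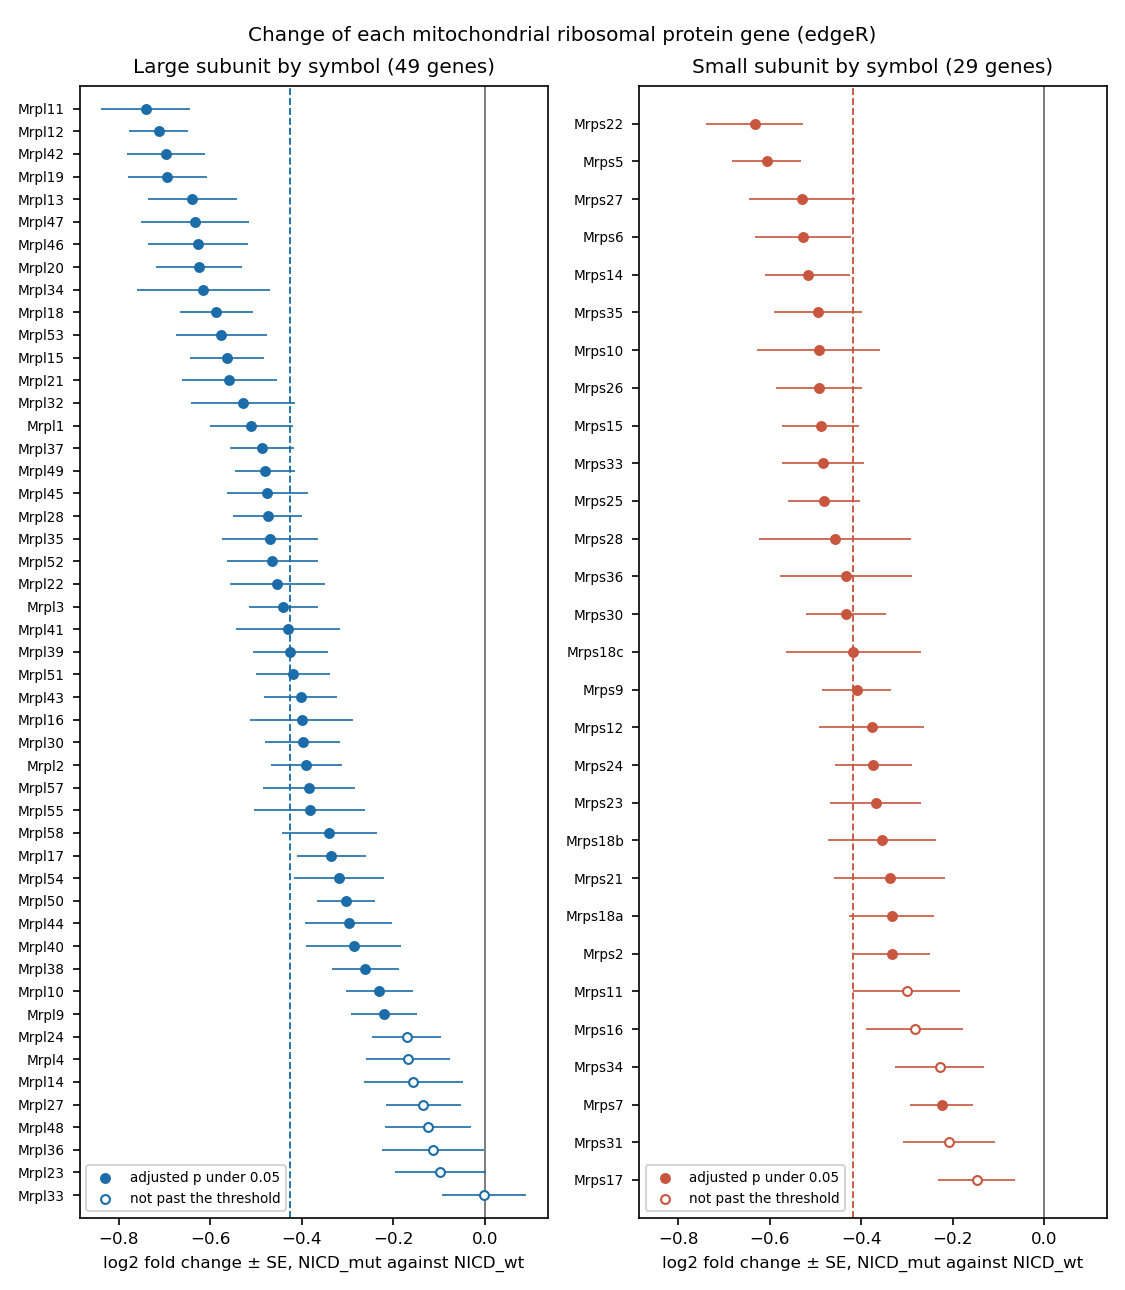
Log2 fold change of each member with its SE, from the edgeR fit on 2 NICD_mut and 3 NICD_wt libraries; filled points had an adjusted p under 0.05 and dashed lines are the subunit medians, −0.43 and −0.42. All 78 points lie below 0, from Mrpl11 at −0.74 to Mrpl33 at −0.00.

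The large subunit genes with the largest changes were led by Mrpl11 and Mrpl12, which belong with Mrpl10 to the stalk region where translation factors dock. Mrpl11 (chr19:4962147-4966999) stood at 30.9 and 30.9 CPM in NICD_mut and at 56.98, 47.1 and 50.8 in NICD_wt. Both NICD_mut values were well below the lowest NICD_wt value, and the log2 fold change was −0.74 (SE 0.10, adjusted p = 0.000323). Mrpl12 (chr11:120484613-120489065), which is also known to bind the mitochondrial RNA polymerase, was at 68.3 and 68.4 CPM against 113, 107 and 117. It had the smallest SE of the 6 largest changes, with a log2 fold change of −0.71 (SE 0.06, adjusted p = 4.44e-05). Mrpl10, the third stalk gene, fell less, with a log2 fold change of −0.23 (SE 0.07), from 62.0 to 63.8 CPM in NICD_wt to 50.5 and 56.2 in NICD_mut, and its call held without NICD_mut 2 but was lost without any of the other 4 libraries.

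Mrpl42, a mitochondrial addition, was at 29.8 and 27.6 CPM in NICD_mut and 47.3, 47.6 and 44.9 in NICD_wt (−0.70, SE 0.08). Mrpl19, the counterpart of a bacterial protein at the interface between the subunits, was at 24.5 and 26.3 CPM against 40.5, 40.6 and 42.3 (−0.69, SE 0.09). Groups were separate for both genes. Mrpl13, an early binding protein of the large subunit in bacteria, was at 41.8 and 39.6 CPM against 70.6, 57.1 and 62.5 (−0.64, SE 0.10). NICD_wt 1 was the highest library for Mrpl13 and for Mrpl11. Mrpl47, the counterpart of a protein at the exit of the peptide tunnel, had the lowest CPM of the 6. It was at 12.4 and 12.2 CPM against 19.5, 19.4 and 18.5 (−0.63, SE 0.12). All 6 stayed past the threshold in each of the 5 fits that left out 1 library. Exons of 17 members, Mrpl13, Mrpl19, Mrpl36, Mrpl47, Mrps6, Mrps25 and Mrps30 among them, overlap another coding gene in GENCODE. Where the other gene is on the opposite strand, the member's values are uncertain because the strand setting of the counting is not given. Mrps6 overlaps Gm49711 and Slc5a3 on its own strand, so its values are uncertain under any strand setting.

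In the small subunit the largest changes were in Mrps22 and Mrps5. Mrps22 (chr9:98588730-98601660), a mitochondrial addition, was at 19.5 and 21.7 CPM in NICD_mut and at 30.7, 30.5 and 34.6 in NICD_wt. The groups did not overlap, and the log2 fold change was −0.63 (SE 0.11, adjusted p = 0.00124). Mrps5 (chr2:127587222-127606829), whose bacterial counterpart lines the entry path of the message and bears on the accuracy of decoding, was at 35.04 and 34.8 CPM against 52.8, 51.7 and 55.1. Its replicates were close and its log2 fold change was −0.61 (SE 0.08, adjusted p = 0.000252).

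Mrps27, a pentatricopeptide repeat protein of the small subunit, was at 34.9 and 36.9 CPM against 50.9, 45.3 and 59.4, with the widest NICD_wt spread of the 6 (−0.53, SE 0.12). Mrps6, with a bacterial counterpart, was at 24.5 and 28.7 CPM against 39.2, 35.6 and 40.4 (−0.53, SE 0.11). Mrps14, also with a bacterial counterpart, was at 24.1 and 27.4 CPM against 36.4, 37.1 and 37.1 (−0.52, SE 0.09). Mrps35, a mitochondrial addition, was at 24.95 and 26.2 CPM against 38.4, 33.4 and 36.2 (−0.49, SE 0.10). For each of these 4 genes both NICD_mut libraries were below every NICD_wt library. Mrps27 did not pass on log2(TPM + 1) (limma, adjusted p = 0.058). All 6 passed in each of the 5 fits that left out 1 library.

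A few members stand apart from the complex their symbol names. Mrps30 and Mrps18a carry small subunit symbols but sit in the large subunit of the mammalian mitoribosome. Mrps30 was at 32.9 and 37.8 CPM against 48.3, 48.5 and 46.5 (−0.43, SE 0.09), and Mrps18a was at 27.95 and 31.8 CPM against 36.6, 37.7 and 38.7 (−0.33, SE 0.09). Placing both in the large subunit left 43 of 51 large and 22 of 27 small members lower, with medians of −0.43 and −0.42. The other versions of the S18 protein, Mrps18b and Mrps18c, were at 18.5 and 21.7 CPM against 24.8, 24.3 and 27.9 (−0.35, SE 0.12) and at 19.9 and 15.3 against 23.6, 21.1 and 26.01 (−0.42, SE 0.15). The call of Mrps18a was lost without NICD_mut 1 or NICD_wt 3, that of Mrps18c without NICD_mut 2, NICD_wt 1 or NICD_wt 3, and that of Mrps18b in every fit that left out 1 library except the one without NICD_mut 2. Mrps36, also described as part of the 2-oxoglutarate dehydrogenase complex, was at 20.2 and 19.7 CPM against 27.1, 22.3 and 31.4 (−0.43, SE 0.14). NICD_wt 2 was its lowest NICD_wt library, and its call held without that library but was lost without any of the other 4.

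The 13 members that did not pass were Mrpl4, Mrpl14, Mrpl23, Mrpl24, Mrpl27, Mrpl33, Mrpl36, Mrpl48, Mrps11, Mrps16, Mrps17, Mrps31 and Mrps34, and a missed threshold does not show that they were unchanged. Mrpl33, with a bacterial counterpart, was the closest to equal, at 26.3 and 26.8 CPM in NICD_mut and 27.4, 26.2 and 26.1 in NICD_wt (log2 fold change −0.00, SE 0.09). Its sign was not stable: it was 0.11 on log2(TPM + 1) and 0.01 with DESeq2. Mrpl23, a counterpart of a protein at the peptide exit, was at 31.05 and 35.8 CPM against 36.1, 33.5 and 37.7 (−0.10, SE 0.10), and Mrpl36 was at 25.4 and 28.5 against 28.7, 32.05 and 26.5 (−0.11, SE 0.11). In all 3 the groups overlapped, and the value of Mrpl23 was also above 0 on log2(TPM + 1), at 0.01. In the small subunit the 5 members not past the threshold had log2 fold changes from −0.30 (Mrps11) to −0.15 (Mrps17), and in each of them NICD_mut lay below NICD_wt in CPM. On log2(TPM + 1) Mrps17 was at 0.04.

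In level, per length, the members differed far more among themselves than between the groups. Mean TPM in NICD_wt had a median of 76.9 over members and a 36.7-fold span. Mrpl52, a short mitochondrial addition, was the highest, at 337 and 405 TPM in NICD_mut and 456, 490 and 482 in NICD_wt. Mrpl35 was the lowest, at 10.3 and 10.1 TPM against 11.8, 13.5 and 13.5. In the small subunit Mrps21 was the highest, at 287 and 323 TPM against 351, 341 and 374, and Mrps25 the lowest, at 13.7 and 14.4 against 17.2, 18.9 and 17.8. For these 4 genes NICD_mut was below NICD_wt in each library, and the counts gave log2 fold changes of −0.46 (Mrpl52, SE 0.10), −0.47 (Mrpl35, SE 0.10), −0.34 (Mrps21, SE 0.12) and −0.48 (Mrps25, SE 0.08). The call of Mrps21 (adjusted p = 0.045) held without NICD_wt 2 and was lost without any of the other 4 libraries. As a description over the 78 members, which share libraries, the order of TPM levels in the 2 groups had a Spearman correlation of 0.99. The NICD_wt level and the log2 fold change had a Spearman correlation of 0.16.

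**Figure D3:**
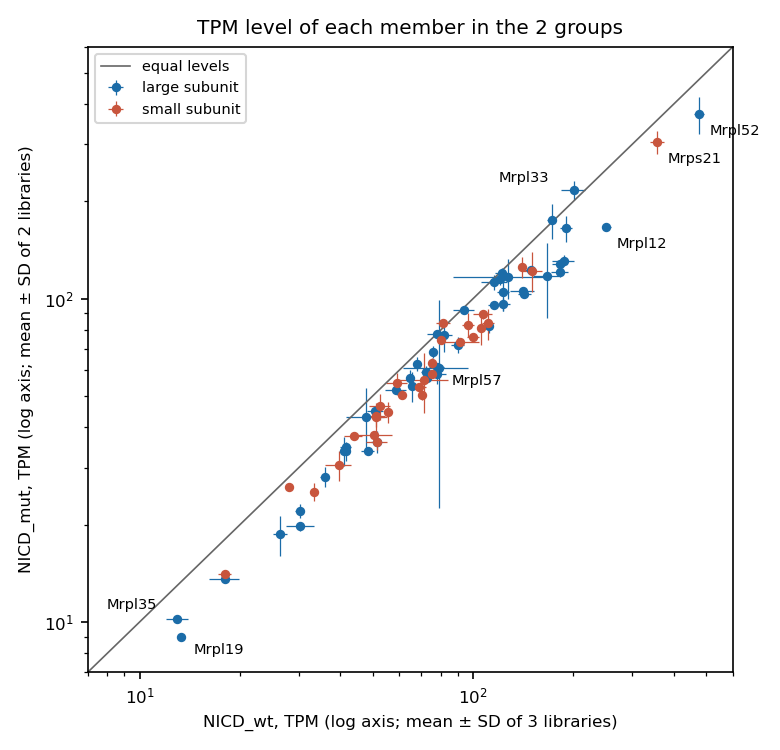
Mean TPM of each member in NICD_mut (vertical, 2 libraries) against NICD_wt (horizontal, 3 libraries) on log axes, with SD as bars and a line of equal levels. Most points lie below the line at every level, from Mrpl35 at 10.2 against 13.0 TPM to Mrpl52 at 371 against 476; Mrpl33 lies above it (216 against 200.1), and Mrpl57 has the longest bars.

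The deposited units disagreed for a few genes. The number of counts per TPM should change little between libraries for a gene, and its highest over lowest value had a median of 1.04 over the members. It exceeded 1.2 for 5 of them (Mrpl57, Mrpl36, Mrpl17, Mrpl52 and Mrps21) and for 5.0% of the 11408 genes with at least 100 counts in every library. Mrpl57, a mitochondrial addition, had the highest ratio, 2.36. Its counts gave 19.8 and 18.7 CPM against 24.6, 25.5 and 25.4, with no overlap and a log2 fold change of −0.38 (SE 0.10, adjusted p = 0.0118), while its TPM were 87.9 and 33.8 against 60.1, 95.1 and 82.3, and the limma test on log2(TPM + 1) gave an adjusted p of 0.401. NICD_mut 1 was among the highest libraries for Mrpl57 in TPM and among the lowest in CPM. Over all members the fold changes from the 2 units had a Spearman correlation of 0.97.

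**Figure D4:**
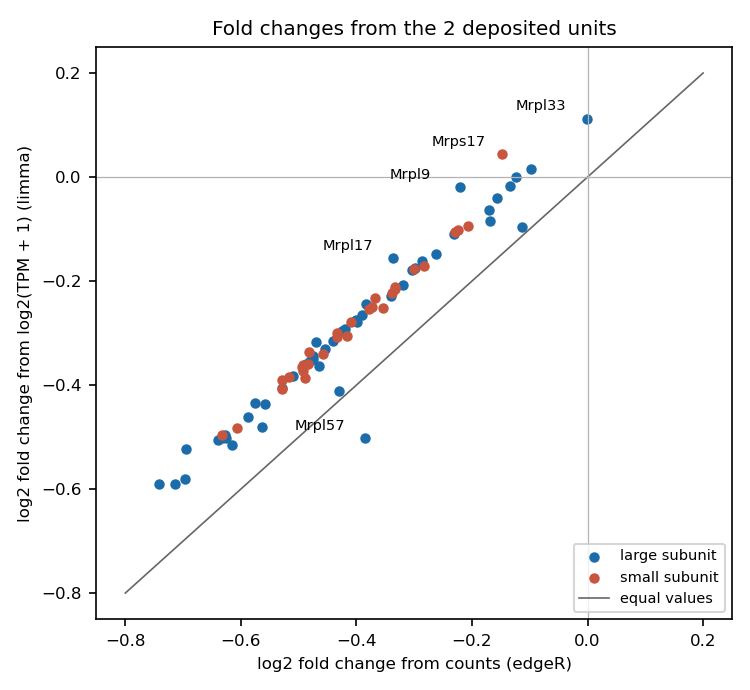
Log2 fold change of each member from the counts (horizontal, edgeR) and from log2(TPM + 1) (vertical, limma), with a line of equal values. Most members lie above the line and keep their order; Mrpl57 lies below it (−0.38 against −0.50), and 74 of the 78 were below 0 in both.

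Proteins of the mitoribosome with other symbols fell with the members. All 5 that were listed were lower, with a median log2 fold change of −0.50, and all 5 passed in every fit that left out 1 library. Chchd1, a small subunit protein, was at 21.6 and 20.4 CPM in NICD_mut and 36.5, 34.5 and 39.7 in NICD_wt (−0.81, SE 0.10, adjusted p = 0.000214). Ptcd3, a pentatricopeptide repeat protein of the small subunit, was at 48.5 and 47.9 CPM against 70.3, 69.4 and 79.9 (−0.60, SE 0.08). Dap3, the GTP-binding protein of the small subunit, was at 54.4 and 50.1 CPM against 76.5, 75.8 and 69.0 (−0.50, SE 0.08). Groups did not overlap for these 3. Gadd45gip1 of the large subunit (−0.41, SE 0.09) and Aurkaip1 of the small subunit (−0.36, SE 0.08) passed in the count fit but not on log2(TPM + 1).

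Of 27 genes that assemble the mitoribosome or modify its rRNA, 10 were lower, none higher and 17 not past the threshold, with a median of −0.22, where 24.8% of all tested genes were lower. Rcc1l, an assembly factor, was at 25.8 and 28.2 CPM against 45.5, 47.7 and 43.0 (−0.75, SE 0.09). Fastkd2, an RNA-binding protein needed for large subunit assembly, was at 18.9 and 19.1 CPM against 32.1, 29.1 and 31.6 (−0.70, SE 0.10), and Trub2, a pseudouridine synthase, was at 25.9 and 32.4 against 44.2, 41.1 and 44.1 (−0.56, SE 0.11). These 3 had no overlap and passed in every fit that left out 1 library. The count of lower genes depended on single libraries. It was 5 without NICD_wt 1 and 6 without NICD_wt 3, where 20.3% and 19.6% of all genes tested were lower.

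Among 15 genes for translation factors and related steps, 6 were lower, 1 higher and 8 not past the threshold, with a median of −0.24. For comparison, 24.8% of all tested genes were lower. Tufm, which brings aminoacyl-tRNA to the mitoribosome, was at 97.6 and 97.1 CPM against 138, 136 and 136 (−0.49, SE 0.06, adjusted p = 0.00017). Tsfm, its exchange factor, was at 26.5 and 25.5 CPM against 40.4, 36.4 and 36.3 (−0.54, SE 0.09), and Gfm1, which drives translocation, was at 42.0 and 41.6 against 57.1, 58.5 and 60.3 (−0.49, SE 0.07). All 3 had tight, separate groups. Mtif3, an initiation factor, was higher, at 22.9 and 35.3 CPM against 21.4, 18.7 and 16.2 (0.63, SE 0.20, adjusted p = 0.039), but its NICD_mut libraries differed and the call was lost without NICD_mut 2, NICD_wt 2 or NICD_wt 3.

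Of the 17 mitochondrial aminoacyl-tRNA synthetase genes, which load amino acids onto tRNA, 6 were lower, 1 higher and 10 not past the threshold. Over all tested genes 24.8% were lower. The synthetase median was −0.24, which is the value of Lars2 (SE 0.55, named after its values were seen). Lars2 varied within both groups, at 184 and 299 CPM in NICD_mut and 352, 149 and 352 in NICD_wt. The synthetase median was −0.04 without NICD_mut 1 and NICD_wt 1, the libraries with muscle transcripts. On log2(TPM + 1) 3 were lower, where 17% of all genes tested were lower. Yars2 was at 19.2 and 17.5 CPM against 28.9, 28.9 and 31.1 (−0.69, SE 0.10), Tars2 at 23.5 and 21.4 against 33.8, 32.1 and 31.9 (−0.54, SE 0.10), and Sars2 at 16.1 and 15.7 against 25.7, 24.4 and 22.6 (−0.61, SE 0.11). Iars2 was higher, at 95.4 and 105 CPM against 85.4, 85.1 and 90.9 (0.20, SE 0.07, adjusted p = 0.0341), a call held only without NICD_mut 1 among the 5 fits that left out 1 library. Tars2 did not pass on log2(TPM + 1). In the fit without NICD_mut 1, 2 synthetase genes were higher.

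For the copying and transcription of mitochondrial DNA, 6 of 12 genes were lower, none higher and 6 not past the threshold. Their median was −0.20. The share lower over all tested genes was 24.8%. In the fit without NICD_wt 3, 1 of the 12 genes was higher. Ssbp1, the single-strand binding protein, was at 23.3 and 24.96 CPM against 40.4, 38.4 and 40.4 (−0.72, SE 0.09, adjusted p = 0.000216). Tfam, which packs mitochondrial DNA and starts its transcription, was at 51.2 and 58.8 CPM against 73.7, 74.9 and 82.7 (−0.49, SE 0.09), and the helicase Twnk was at 34.1 and 35.5 against 47.9, 44.7 and 45.7 (−0.41, SE 0.08). The groups were separate for these 3. Exons of Twnk overlap those of the member Mrpl43 on the opposite strand. The values of Twnk are therefore uncertain, because the strand setting of the counting is not given. Transcripts encoded by mitochondrial DNA were not analysed here.

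Of 11 nuclear regulators known to act on mitochondrial or growth genes, 7 were lower and none higher, with a median of −0.35. Over all tested genes 24.8% were lower. Myc, a growth regulator that binds E-boxes, was at 46.2 and 44.7 CPM in NICD_mut and 79.7, 73.3 and 80.7 in NICD_wt (−0.78, SE 0.07, adjusted p = 5.23e-05). Ppargc1a, a coactivator of mitochondrial genes, was at 13.98 and 16.2 CPM against 25.7, 25.2 and 23.6 (−0.72, SE 0.12). Nrf1, the factor that binds the NRF1 motif, was at 48.4 and 50.1 CPM against 63.7, 65.5 and 66.7 (−0.41, SE 0.07). The groups did not overlap for any of the 3. Of the others, named after their values were seen, Mycn had a log2 fold change of −1.67 (SE 0.21), Gabpb1 −0.47 (SE 0.08) and Gabpa −0.16 (SE 0.08, adjusted p = 0.116), and Yy1 fell at −0.19 (adjusted p = 0.0498), a call lost in 4 of the 5 fits that left out 1 library and held without NICD_mut 2.

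Other large sets that a growing or respiring cell expresses moved the same way. Of 81 tested cytosolic ribosomal protein genes 73 were lower and none higher, with a median of −0.54, and their summed share of counts was 4.13% and 4.26% in NICD_mut against 5.82% to 6.28% in NICD_wt. Of 80 tested nuclear genes of the respiratory chain, which the mitoribosome's products join, 63 were lower and 1 higher, with a median of −0.37. The gene that was higher, Ndufa4l2 (named after its value was seen), was not past the threshold without NICD_mut 1 or NICD_wt 1, and 2 genes were higher without NICD_mut 2. The members' median of −0.42 lay between these sets, and the differences between the sets were not tested.

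**Figure D5:**
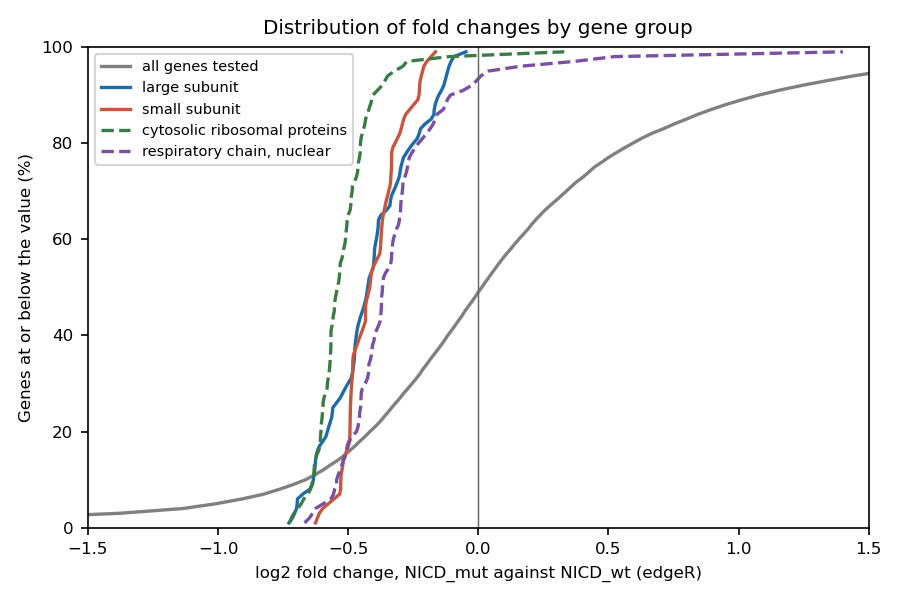
Percent of genes at or below each log2 fold change (edgeR), for all 15885 tested genes, the large and small subunit members, cytosolic ribosomal protein genes and nuclear respiratory chain genes. The curves of the 2 subunits run close together around −0.43 and −0.42, with cytosolic ribosomal proteins to the left (median −0.54), the respiratory chain to the right (median −0.37), and the curve of all genes wider and centred at 0.01.

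Markers of cell types and of proliferation also differed between the groups. Of 9 proliferation genes 8 were lower, with a median of −0.86, and their summed level was 1176 and 1154 CPM in NICD_mut against 1803 to 1856 in NICD_wt. All 6 nephron progenitor markers fell, to a summed 41.5 and 30.5 CPM against 485 to 500.3. Of 8 proximal tubule markers 6 rose and 1 fell, and their sum was 1594 and 1717 CPM against 605 to 744. Of 6 leukocyte markers 4 rose, all 4 endothelial markers rose, and 4 of 6 tested erythroid markers rose, with sums of 115 and 117 against 43.7 to 46.2, of 735 and 806 against 434 to 470, and of 10208 and 11365 against 4492 to 5808 CPM. Of 5 liver markers only Fgb rose, at 50.8 and 60.3 CPM against 2.13 to 3.02, and the sums of the other 4 overlapped, at 67.7 and 53.02 CPM against 47.01 to 90.01. Their part in the fall of the members was not tested. In bulk RNA fewer cells of a type and less RNA per cell cannot be told apart. The 8 skeletal muscle markers did not pass the test in either direction. Without NICD_mut 1 and NICD_wt 1, the libraries that held them, the members' median was −0.40, against −0.01 over all genes tested. That fit has a single NICD_mut library.

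Many members share a promoter region with another gene. For 18 of the 78 (23.1%) the start of another coding gene on the opposite strand lay within 1000 bp upstream, as for 9.1% of 14504 tested genes with a GENCODE coding gene. Of the 18 partners 8 were lower, 2 higher and 8 not past the threshold, with a median log2 fold change of −0.34. The share lower over all tested genes was 24.8%. Mrps12 shares its region with the synthetase gene Sars2 at a distance of 172 bp (partner −0.61), Mrpl32 with the proteasome gene Psma2 at 75 bp (−0.46), and Mrpl49 with Fau, which encodes a cytosolic ribosomal protein, at 59 bp (−0.44). Mrpl57 with Ska3 and Mrpl51 with Ncapd2 pair a member with a gene of cell division, and these partners had log2 fold changes of −0.77 and −0.53. The 2 partners that rose were Klc4 beside Mrpl2 (0.54, SE 0.11) and Zfp189 beside Mrpl50 (0.60, SE 0.13), while Mrpl2 and Mrpl50 themselves fell, at −0.39 and −0.30. These partners were named after their values were seen.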

How the data were processed

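RNA from 5 kidney libraries was compared, 2 NICD_mut and 3 NICD_wt. For each gene symbol the authors deposited estimated counts, made with RSEM per the submitters' processing notes. These values are whole numbers and entered the test as deposited. The authors also deposited a table of TPM for the same libraries. Per the submitters' processing notes, Bowtie2 and the mm10 genome were also used. Tool versions, strand setting and annotation were not given in the sources used here. The estimation divides reads among similar sequences, so values of near-identical copies are uncertain.

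Columns were matched to samples by name and groups came from the labels. Counts were scaled with TMM, filtered by group with filterByExpr (at least 10 counts, total at least 15) and tested with edgeR 4.0.16 (quasi-likelihood, robust) in R 4.3.3 on all 15885 genes, calling adjusted p (Benjamini-Hochberg) under 0.05. The fit was tested on simulated data. Lists were described by counts and medians, with no set test.

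The members and the lists were chosen with earlier results of these data known. Named by rule were the 6 largest changes per subunit, the highest and lowest TPM, members with an unusual place, and the 3 smallest adjusted p in each direction per companion list; genes said to be named after their values were seen, the members described beside the 6 largest changes, and those not past the threshold were added. Alternatives were RLE (DESeq2-style) or no scaling factors, other filters, DESeq2 1.42.0, limma 3.58.1 (voom, and log2 TPM with a pseudocount of 1 or 0.1), a 1.5-fold minimum, the replicate number as a block, leaving out each library, and leaving out both libraries with muscle transcripts. Levels in CPM use these scaled counts. Gene positions are from GENCODE M21 and promoters from RefSeq.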

Additional observations from a re-analysis of the deposited data

How the results depend on the processing

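Under RLE scaling, library size alone, no filter, a stricter filter, DESeq2 and limma-voom, 61 to 66 members were lower and none higher. In these fits 19.5% (no filter) to 27.1% (stricter filter) of all genes tested were lower. With log2(TPM + 1), log2(TPM + 0.1) and log2(TPM + 1) without a filter, 28, 28 and 26 large and 12 small members (in each) were lower; the large medians were −0.315, −0.3185 and −0.315, and the small medians −0.2998, −0.303 and −0.2998. Of all genes tested on those scales, 17%, 16% and 11% were lower. Those scales put the share of higher calls among all genes at 62.1%, 61.8% and 63.0%, against 48.1% in the count fit. Against a 1.5-fold minimum, 0 large, 0 small and 1695 of all genes passed. Leaving out 1 library gave 5898 to 8050 genes in all, 31 to 39 large and 15 to 22 small members lower, and medians of −0.409 to −0.449 (large) and −0.393 to −0.481 (small); 45 of the 65 lower members passed in all 5 such fits. Without both libraries that held muscle transcripts the small median was −0.372.

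Members near 0 changed sign. Leaving out 1 library gave −0.0247 to 0.0221 for Mrpl33 and −0.2121 to 0.001 for Mrpl23. Mrpl33 was 0.0055 (RLE), 0.0197 (stricter filter), 0.0053 (DESeq2), 0.1125, 0.113 and 0.1125 (the TPM scales in the order above), 0.0107 without NICD_mut 1 and 0.0317 without both muscle libraries. Mrpl23 was 0.0147 on each TPM scale and 0.0058 without both muscle libraries. On the TPM scales Mrpl48 was 0.0003, 0.0004 and 0.0003, and Mrps17 0.0437, 0.0442 and 0.0437. The causes were not tested.

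With the replicate number as a block, 5535 genes changed in all, and 30 large and 17 small members were lower, 47 of the 65 called without it; assembly genes lower went from 10 to 4, translation factors and mitochondrial DNA upkeep genes each from 6 to 3, with 1 upkeep gene higher, and the higher calls of Mtif3 and Iars2 were lost. Lower calls took in 18.1% of all genes tested in the fit with the block. The sources do not say that a number marks a shared animal or day. Deviations of same-numbered libraries correlated over all genes at 0.339 and 0.132 (0.283 and 0.298 over members), but NICD_mut 2 with NICD_wt 3 reached 0.239. With 2 NICD_mut libraries the deviations of 1 mirror those of the other, so the 2 pairs are not independent and cannot decide.

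Leaving genes of mitochondrial DNA out of the library sizes was planned and not run. With 2 NICD_mut libraries a lone library in a fit is assumed to vary like the other group.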
